A study of Caenorhabditis elegans with 6 samples.

Results

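The rDNA genes that are transcribed together as 1 precursor, and 1 annotated feature that runs against them, were followed through small RNA libraries of the nematode Caenorhabditis elegans. They were chosen by annotation: the 18S rRNA genes rrn-1.1 (F31C3.7) and rrn-1.2 (F31C3.8), the 5.8S gene rrn-2.1 (F31C3.11), the 26S gene rrn-3.1 (F31C3.9), and F31C3.13, a gene of the rRNA class from the same clone. These are 5 of the 45510 genes in the deposited count tables and 5 of the 24 genes of the rRNA class. Whole L3 larvae gave 6 libraries, 1 per group. The 3 genotypes all carried the allele eri-1(mg366) and the transgene GFP::NRDE-3, with no further mutation in the control, with susi-2(ust49) in one mutant and with susi-3(ust51) in the other. Each genotype gave a library of total small RNA and a library of the RNA recovered with NRDE-3 by immunoprecipitation (IP) with an antibody against its FLAG tag. All libraries carry the label 15 °C, while the protocol names 20 °C and the bacterial strain OP50 for strain maintenance. An IP from larvae lacking the tag was not analysed here, so RNA bound by NRDE-3 and RNA carried over in the pull-down cannot be told apart.

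Ribosomal RNA is made as a long precursor by RNA polymerase I and is cut, trimmed and chemically modified in the nucleolus until the 18S rRNA of the small subunit and the 5.8S and 26S rRNAs of the large subunit are released. In C. elegans, faulty rRNA can serve as template for RNA-dependent RNA polymerases, which make short antisense RNAs called ribosomal siRNAs. NRDE-3 is an Argonaute protein that carries secondary siRNAs into the nucleus, where it acts on the transcripts they match. Mutation of eri-1 empties NRDE-3 of most of its usual endogenous siRNAs. The susi genes are known for suppressing ribosomal siRNAs: susi-2 is rrp-8, which encodes a methyltransferase of 26S rRNA, and susi-3 is riok-1, whose product is a kinase that acts in maturation of the small subunit. The question put to each member was therefore how many small RNAs lay on the strand opposite to rRNA, and whether that number differed between the genotypes and between total and NRDE-3-bound RNA.

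Libraries held 9122066 to 10755494 counts, so 1 count was worth 0.0930 to 0.110 CPM (counts scaled to a library total of 1000000). With 1 library per group no difference has a replicate check, no p-value was computed, and the 95% intervals cover counting error only. For rrp-8 the sense column gave 30 counts in the control, 10 in susi-2 and 36 in susi-3 for total RNA, and 106, 31 and 51 for the IPs. Those on riok-1 were 94, 138 and 89, and 427, 344 and 366. The lesions are not given in the labels, so these counts do not check the genotypes. The larval microRNAs lin-4 and let-7 were present in every library, with at least 616 and 2076 sense counts, but their levels were uneven. In total RNA let-7 had 103538 counts in the control, 43872 in susi-2 and 57826 in susi-3. For lin-4 the counts were 2957, 3906 and 6340 in the same order. Whether the larvae differed in stage was not tested.

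F31C3.13 was examined first, since its strand decides how its columns are read. Between 88.96% and 99.995% of its counts lay in the column antisense to its annotation, while the rRNA genes carried at least 68.1% of theirs in the sense column. In the RefSeq annotation of assembly WBcel235, F31C3.13 lies wholly within rrn-1.2. Its antisense column therefore runs with rRNA and its sense column runs against it, and below the rRNA strand and the opposite strand are named by the direction of rRNA for every member. The same reading was taken for 3 other genes of the rRNA class, F31C3.14, F31C3.15 and F31C3.16, which in RefSeq overlap rrn-3.1 in part, rrn-1.1 wholly, and the 26S pseudogene rrn-3.56 in part. Their antisense column held at least 97.06% of their counts outside the susi-2 IP. In that IP it held 58.4% on F31C3.14, 96.05% on F31C3.15 and 49.8% on F31C3.16. These features, together with 3 of the 5S copies, bring rRNA-strand fragments into the antisense column of the tables. They made up 15.99% of all antisense-column counts in control total RNA, 25.9% in susi-2 and 17.2% in susi-3, and 47.9%, 21.9% and 48.5% in the IPs in the same order. The share was highest in the control and susi-3 IPs.

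On the rRNA strand the members were abundant and differed little between genotypes. The 26S gene had 205442 CPM in control total RNA, 206370 in susi-2 and 181268 in susi-3, and 426092, 396213 and 502641 CPM in the IPs in the same order. The 18S copy rrn-1.1 had 36850, 54340 and 44251 CPM in total RNA and 47542, 38249 and 43760 CPM in the IPs. The 18S rRNA is the RNA core of the small subunit, and its fragments were highest in total RNA of susi-2, 1.42-fold the control over both copies (1.41 to 1.42). The 5.8S gene, whose RNA pairs with 26S in the large subunit, had 3798, 4652 and 4710 CPM in total RNA and 2667, 2308 and 1434 CPM in the IPs. F31C3.13 had 2041, 2059 and 1607 CPM in total RNA and 3162, 2999 and 2945 CPM in the IPs. As shares of all counts, none of the 5 members reached a 2-fold difference between a mutant and the control on this strand in either kind of library. With TMM scaling on antisense counts, 18S reached a ratio of 2.29 in total RNA of susi-2, and the 5 members lay from 0.378 to 0.446 in the susi-2 IP. The direction of such small differences depended on the scaling: over the members and the summed 18S copies in all comparisons, 59 of 216 rRNA-strand ratios under another scaling lay on the other side of 1, against 2 of 216 on the opposite strand.

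**Figure D1:**
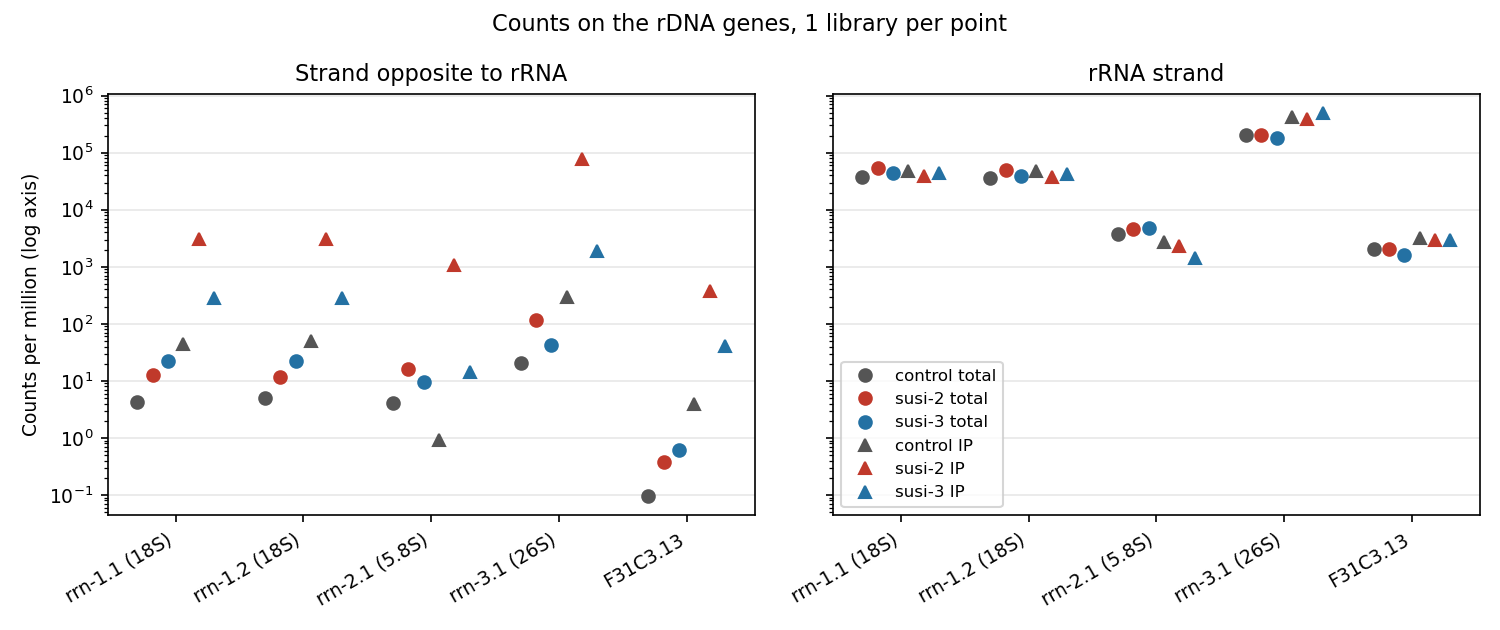
CPM on a log axis for each rDNA gene in each library, left on the strand opposite to rRNA and right on the rRNA strand; circles are total RNA, triangles IPs, grey the control, red susi-2 and blue susi-3. On the left the susi-2 IP is the highest point of every gene, at 78621 CPM on rrn-3.1, while on the right the points of a gene lie close together.

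The opposite strand gave another picture. On the 26S gene rrn-3.1 it held 20.9 CPM in control total RNA (220 counts), 115.9 in susi-2 (1214 counts) and 41.96 in susi-3 (413 counts). In the IPs it held 292.6 CPM in the control (3147 counts), 78621 in susi-2 (717187 counts) and 1895 in susi-3 (18018 counts). Both mutants lay above the control in both kinds of library, and susi-2 lay above susi-3 in both.

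The 18S copies gave a different order in total RNA. The opposite strand of rrn-1.1 held 4.19 CPM in the control, 12.5 in susi-2 and 22.4 in susi-3, and that of rrn-1.2 held 5.04, 11.7 and 22.5 CPM, so here susi-3 was the highest. In the IPs rrn-1.1 had 45.1, 3039 and 289.3 CPM and rrn-1.2 had 48.998, 3030 and 286.4, with susi-2 again the highest. The copies could not be told apart on this strand: rrn-1.1 held 50.1% of the opposite-strand counts of both copies in the susi-2 IP (49.7 to 50.5), and 50% lay within the interval in every other library too. How reads that match both copies were assigned is not given in the sources used here, so the copies are not independent measurements. On the rRNA strand they were less even, with a ratio of rrn-1.1 to rrn-1.2 of 1.006 in control total RNA, 1.09 in susi-2 and 1.12 in susi-3, against 1.01 to 1.02 in the IPs.

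The 5.8S gene rrn-2.1 held 4.09 CPM on the opposite strand in control total RNA (43 counts), 16.2 in susi-2 (170 counts) and 9.45 in susi-3 (93 counts). In the control IP it stood at 0.930 CPM from 10 counts, the lowest of the 5 members there, while the susi-2 IP held 1082 CPM (9874 counts) and the susi-3 IP 14.2 CPM (135 counts). F31C3.13 held few opposite-strand counts in total RNA, with 1 in the control, 4 in susi-2 and 6 in susi-3. Its IP values were 3.998 CPM in the control (43 counts), 372.4 in susi-2 (3397 counts) and 40.2 in susi-3 (382 counts), in the order of the host gene rrn-1.2. Counts on F31C3.13 and rrn-1.2 may come from the same stretch of rRNA and are not independent.

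Because the rRNA strand is measured in the same library, the percent of a gene's own counts that lie opposite to rRNA needs neither a library total nor a gene length. For 26S it was 0.0102% in control total RNA (0.00888 to 0.0116), 0.0561% in susi-2 (0.0530 to 0.0594) and 0.0231% in susi-3 (0.02097 to 0.0255). In the IPs it was 0.0686% in the control (0.0662 to 0.0711), 16.6% in susi-2 (16.5 to 16.6) and 0.376% in susi-3 (0.370 to 0.381). For 18S, over both copies, it was 0.0126%, 0.0232% and 0.0535% in total RNA and 0.0996%, 7.39% and 0.659% in the IPs. The 5.8S gene had the highest percent of the members in the susi-2 IP, 31.9% (31.4 to 32.4), and 0.981% in the susi-3 IP (0.823 to 1.16), against 0.0349% in the control IP (0.0167 to 0.0641). F31C3.13 was at 11.04% in the susi-2 IP (10.7 to 11.4), 1.35% in the susi-3 IP (1.22 to 1.49) and 0.126% in the control IP (0.0914 to 0.170). The 5S rRNA, which is transcribed apart from the precursor by RNA polymerase III, stood at 64.3%, 3.88% and 0.489% in the same IPs over the 13 copies on 1 strand. Mitochondrial rRNA, which is made in another compartment, had 14, 5 and 0 opposite-strand counts in these IPs, or 0.228% and 0.118% of its counts in the mutants.

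**Figure D2:**
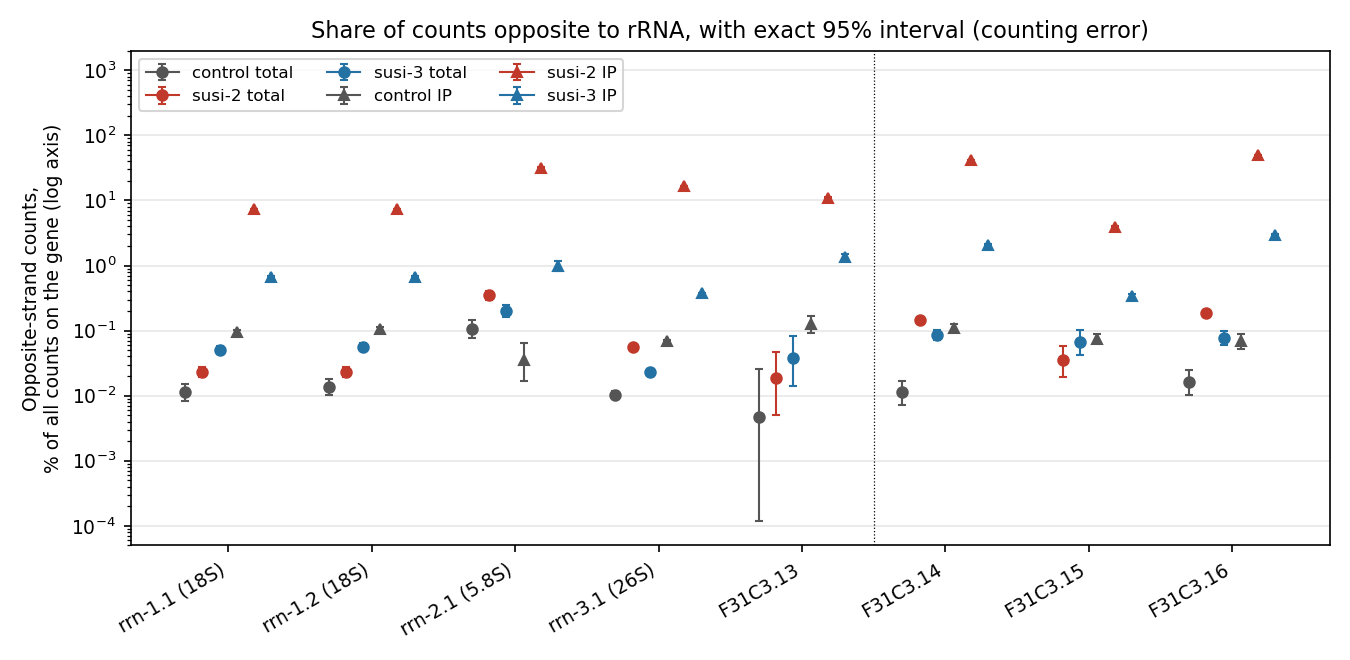
Counts on the strand opposite to rRNA as percent of all counts on the gene (log axis), with exact 95% intervals, for the rDNA genes and, right of the dotted line, for the 3 other features annotated against rRNA; symbols mark kind of library and colours genotype. The susi-2 IP lies highest for every gene, from 3.95% on F31C3.15 to 50.2% on F31C3.16; F31C3.15 had 0 such counts in control total RNA and has no point there.

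Total small RNA of each mutant was compared with that of the control to ask whether the larvae held more RNA against rRNA. In susi-2, 4 of the 5 members had enough opposite-strand counts to be read gene by gene (at least 50 over both libraries), and all 4 were at least 2-fold higher on the log2((CPM + 1)/(CPM + 1)) scale, with a median of 1.57. Of 5362 genes read in the same way in the antisense column, 3.94% were at least 2-fold higher, and the median of all was −0.60. The member with the largest difference was rrn-3.1, at a log2 ratio of 2.41, and 15 of 5339 genes outside the rRNA class stood higher. The ratio was 2.99 for rrn-1.1 (2.11 to 4.31) and 2.31 for rrn-1.2 (1.66 to 3.25). F31C3.13, with 4 counts against 1, had a ratio of 4.02 with an interval from 0.397 to 198, so no difference was detectable at this depth.

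Set against each gene's own rRNA strand, the odds of an opposite-strand count in susi-2 were 5.51-fold those of the control for 26S (4.78 to 6.37). They were 3.24-fold for 5.8S (2.32 to 4.53), while 18S had odds of 1.85-fold (1.46 to 2.34). The 18S difference was thus smaller against its own strand than against the library total, beside the higher rRNA-strand 18S of this library.

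In total RNA of susi-3, 3 of the 4 members with enough counts were at least 2-fold higher (median 1.497), against 5.48% of 5460 genes, whose median was −0.56. The exception was rrn-3.1, at a log2 ratio of 0.97 and a ratio of shares of 2.01 (1.698 to 2.37), and 308 of 5437 other genes stood higher. With TMM scaling its ratio was 3.095 (2.62 to 3.66). The order was turned about from susi-2: rrn-1.1 had a ratio of 5.34 (3.85 to 7.56) and rrn-1.2 of 4.45 (3.29 to 6.13), and 61 and 85 of 5437 other genes stood higher. The odds against the gene's own rRNA strand were 4.26-fold those of the control for 18S (3.42 to 5.31). For 26S they were 2.27-fold (1.93 to 2.68), and 5.8S had odds of 1.86-fold (1.30 to 2.67). F31C3.13, which lies in 18S, had 6 counts against 1, a ratio of 6.41 (0.778 to 295).

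Set side by side without the control, total RNA of susi-2 held 2.76-fold as much opposite-strand 26S as susi-3 (2.47 to 3.097), 1.72-fold as much 5.8S (1.33 to 2.24), but 0.539-fold as much 18S (0.460 to 0.631). In total RNA the opposite strand of 26S and 5.8S was thus higher in susi-2 and that of 18S in susi-3. On the rRNA strand 18S was 1.24-fold higher in susi-2 than in susi-3 (1.240 to 1.25) and 26S 1.14-fold (1.136 to 1.141), so on that strand both were somewhat higher in susi-2.

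**Figure D3:**
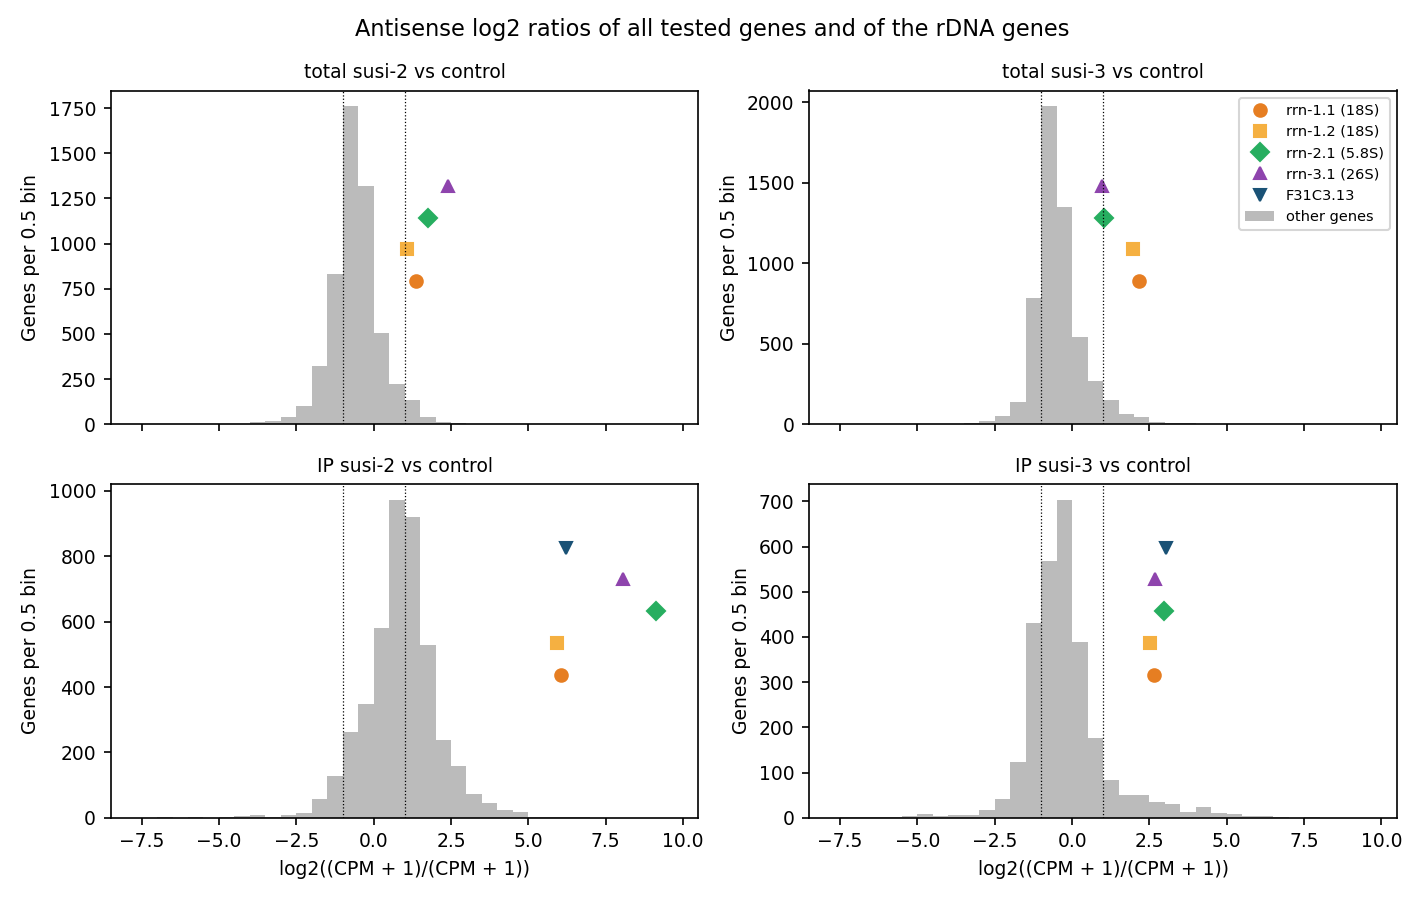
Numbers of genes by antisense log2((CPM + 1)/(CPM + 1)) in bins of 0.5 for each mutant against its control (grey bars, genes outside the rRNA class), with the opposite-strand value of each rDNA gene that had enough counts as a symbol at arbitrary height; dotted lines mark 2-fold. In the susi-2 IP the symbols lie from 5.92 to 9.13, where few other genes are found.

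The IP comparisons ask how much of this RNA was recovered with NRDE-3. In the susi-2 IP all 5 members had enough counts and all 5 were at least 2-fold higher than in the control IP, with a median log2 ratio of 6.22. In this pair 45.8% of 4436 genes passed 2-fold upwards and the median of all genes was 0.92, so the count of members by itself says little. The ratio of shares was 269 for 26S (259 to 278) and 64.5 over both 18S copies (60.6 to 68.7). Several rRNA genes that are not members differed more than 26S: the 5S copies by 303-fold (262 to 352), F31C3.14 by 549-fold (491 to 616) and F31C3.16 by 1105-fold (865 to 1435). F31C3.15 differed less, by 56.1-fold (47.5 to 66.8), and mitochondrial rRNA had 14 counts against 0. No gene outside the rRNA class, of 4413, had a higher log2 ratio than rrn-2.1 (9.13) or rrn-3.1 (8.06), 3 were above F31C3.13 (6.22), and 5 were above each 18S copy. The ratio for 5.8S was 1164 (633 to 2429) and rests on the 10 counts of the control IP. The scaling weighed on these sizes: TMM scaling on antisense counts set 0 at 1.09 on this log2 scale, and the summed precursor ratio was 104 in place of 221. The 4 rRNA genes together made up 41.2% of all counts on antisense strands in the susi-2 IP once the features that run against rRNA were turned round, against 0.630% in the control IP and 4.42% in the susi-3 IP.

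In the susi-3 IP all 5 members were again at least 2-fold higher (median 2.69), against 11.8% of 2823 genes and a median of all genes of −0.37. The ratios of the members ran from 5.85 for rrn-1.2 (5.32 to 6.43) over 6.48 for rrn-3.1 (6.24 to 6.73) and 10.1 for F31C3.13 (7.32 to 14.1) to 15.3 for rrn-2.1 (8.05 to 32.6). The value for rrn-2.1 rests on 10 counts in the control IP. Between 92 and 129 of 2800 other genes had a higher log2 ratio than each member, so here they did not stand at the top of the list. The mutants differed most on the large-subunit RNAs. The susi-2 IP held 76.2-fold as much opposite-strand 5.8S as the susi-3 IP (64.3 to 91.02) and 41.5-fold as much 26S (40.9 to 42.1). For 18S the ratio was 10.54 (10.3 to 10.8) and for F31C3.13 it was 9.27 (8.34 to 10.3). Much of the antisense column leaned the same way: between these IPs 2145 of 4028 genes passed 2-fold upwards and 8 downwards (median 1.06). TMM scaling set 0 at 1.30 on the log2 scale, or 2.45-fold, so each of these ratios is smaller with TMM. Of 4005 genes outside the rRNA class, 0 had a higher log2 ratio than 5.8S or 26S, 24 than 18S and 38 than F31C3.13.

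**Figure D4:**
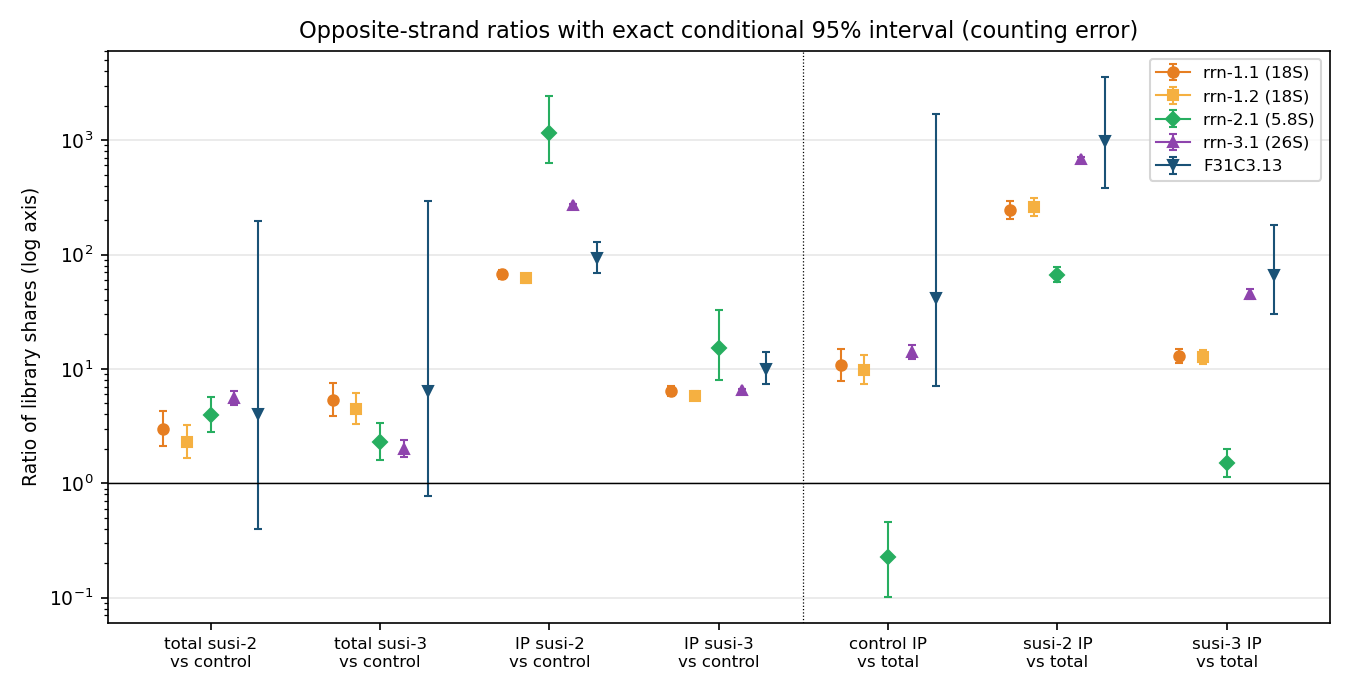
Ratio of library shares on the strand opposite to rRNA (log axis) for each rDNA gene, with exact conditional 95% intervals for counting error; left of the dotted line each mutant against the control, right of it each IP against total RNA from matching larvae. The 18S genes lie above 26S in total RNA of susi-3 and below it in total RNA of susi-2, and rrn-2.1 lies below 1 in the control IP.

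Each IP was then set against the total library of its own genotype. In the control, 3 of the 4 members with enough counts were at least 2-fold higher in the IP, against 11.9% of 5281 genes and a median of all genes of −1.82. The opposite strand was 13.98-fold higher for 26S (12.2 to 16.1), and 18S stood 10.2-fold higher (8.27 to 12.7). The rRNA strand was also higher in the IP, 2.07-fold for 26S and 1.28-fold for 18S, and the odds of the opposite strand were 6.74-fold (5.88 to 7.73) and 7.94-fold (6.45 to 9.78). With TMM the opposite-strand ratio was 69.2 for 26S and 50.5 for 18S, and the rRNA-strand ratio of 26S was 10.3. The odds, which need no scaling, stay as given. The 5.8S gene went the other way, with a ratio of 0.227 on the opposite strand (0.102 to 0.459), 0.702 on the rRNA strand (0.692 to 0.713) and odds of 0.324 (0.163 to 0.644). For the opposite-strand ratio, though not for the odds, this direction depends on the scaling. Set to the bulk of antisense counts by TMM, that ratio was 1.13 (0.504 to 2.28).

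In susi-2 all 5 members were at least 2-fold higher in the IP than in total RNA, against 31.4% of 5574 genes and a median of all genes of −0.09. The ratio was 678 for 26S (641 to 718), 251 over both 18S copies (222 to 285) and 66.7 for 5.8S (57.3 to 78.05), and 2 of 5551 other genes stood above 26S. F31C3.13 had a ratio of 975 from 4 counts in total RNA (380 to 3580). As shares of all counts, the rRNA strand was 1.92-fold higher for 26S and lower for 18S (0.730) and 5.8S (0.496), but 18S turned to 1.29 over counts outside the rRNA class and to 4.79 over microRNA counts. Within each gene, the odds of the opposite strand in the IP over those in total RNA were 353 on the 26S gene (334 to 374), 344 over both 18S copies (304 to 389) and 134 on the 5.8S gene (115 to 156). In susi-3, 4 of 5 members were at least 2-fold higher, against 15.0% of 4219 genes and a median of −1.72, with a ratio of 45.2 on the 26S gene (40.97 to 49.9). The 18S copies together stood at 12.8 (11.7 to 14.2), and the 5.8S gene at 1.503 (1.15 to 1.98). With TMM the ratios in susi-3 were 199.6, 56.8 and 6.64 in that order. The IP-to-total ratio of susi-2 was 48.5-fold that of the control for 26S (41.8 to 56.2). This gain was 24.6 over both 18S copies (19.3 to 31.4), and on the 5.8S gene it was 293 (145 to 593). In susi-3 the gain was 3.23 on the 26S gene (2.73 to 3.82), 6.61 on the 5.8S gene (3.164 to 13.8) and 1.26 over both 18S copies (1.001 to 1.59). The gain holds the total-RNA ratio in its denominator, so a large difference in total RNA lowers it. It also moved with the scaling: for 26S in susi-2 it was 11.03 with TMM, 10.3 with DESeq2 size factors and 94.1 over microRNA counts, and in susi-3 it was 2.88, 2.94 and 6.55. With TMM the gain over both 18S copies was 5.60 in susi-2 and 1.12 in susi-3. On the 5.8S gene it was 66.7 and 5.90 with TMM. The 5.8S gains rest on 10 opposite-strand counts in the control IP.

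The weight of 18S among 18S and 26S counts puts the split in total RNA another way. It is taken from the same counts and is no further support. Both 18S copies are summed in it, and reads that match both may be counted on each, so its level may be too high. On the opposite strand it was 30.6% in control total RNA (25.6 to 36.0), 17.2% in susi-2 (15.3 to 19.3) and 51.6% in susi-3 (48.2 to 55.04), while on the rRNA strand it was 26.3%, 33.5% and 31.6%. In susi-2 the opposite strand thus leaned to 26S while the rRNA strand leaned to 18S, compared with the control. In the IPs the opposite strand held 24.3% 18S in the control (23.04 to 25.7), 7.17% in susi-2 (7.11 to 7.22) and 23.3% in susi-3 (22.8 to 23.8), beside 18.1%, 16.1% and 14.7% on the rRNA strand. The 5.8S gene made up 11.9% of opposite-strand precursor counts in control total RNA (8.78 to 15.8), 10.4% in susi-2 and 9.82% in susi-3, but 0.240% (0.115 to 0.441), 1.26% and 0.571% in the IPs, where the rRNA-strand weight of 5.8S was also lower, at 0.510%, 0.486% and 0.243% against 1.34%, 1.48% and 1.75% in total RNA.

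**Figure D5:**
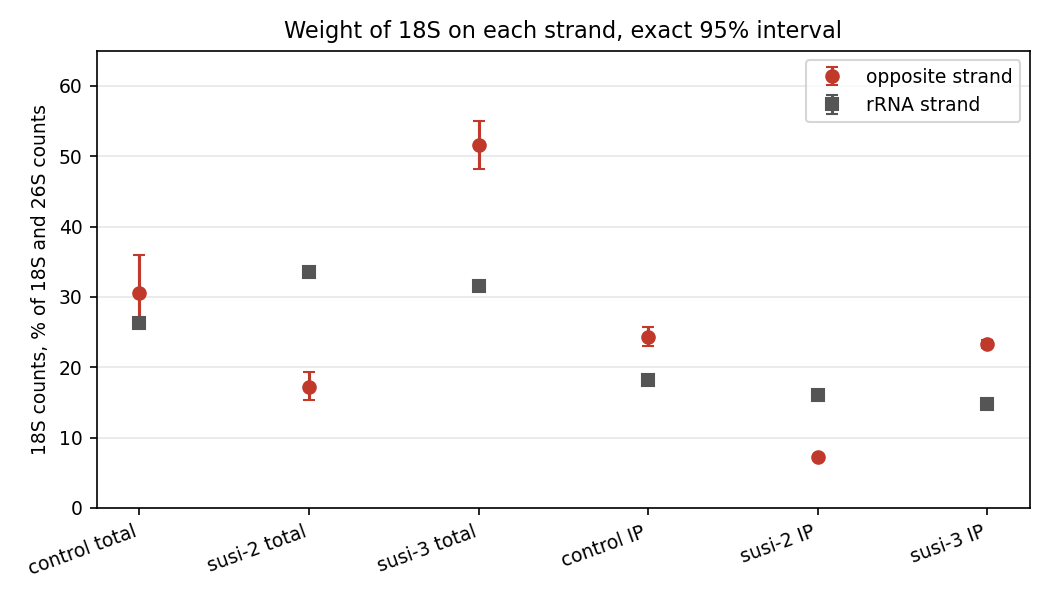
18S counts (both copies summed) as percent of 18S and 26S counts in each library, on the strand opposite to rRNA (red circles) and on the rRNA strand (grey squares), with exact 95% intervals. The opposite strand lies below the rRNA strand in both susi-2 libraries and reaches its highest value, 51.6%, in total RNA of susi-3.

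The features annotated against rRNA give a view within the large genes. In the susi-2 IP, F31C3.13 held 11.04% opposite-strand counts where its host rrn-1.2 held 7.43%, while F31C3.15, within the other 18S copy, held 3.95% (3.85 to 4.04). In the susi-3 IP the same features stood at 1.35% and 0.337% (0.311 to 0.364), around 0.661% for rrn-1.2. The control IP had the same order, with 0.126% on F31C3.13 and 0.0753% on F31C3.15 (0.0634 to 0.0888). These percents are relative to the rRNA strand, which held 27361 counts on F31C3.13 and 163386 on F31C3.15 in the susi-2 IP. In opposite-strand counts F31C3.15 was the higher, with 6712 against 3397. In total RNA both features had at most 22 opposite-strand counts. There F31C3.13 had the lower percent in both mutants, with overlapping intervals. It was 0.0185% against 0.0351% on F31C3.15 in susi-2, and 0.0379% against 0.0664% in susi-3. F31C3.14, which overlaps 26S in part, held 41.6% in the susi-2 IP (41.5 to 41.8) against 16.6% on rrn-3.1, and 2.08% in the susi-3 IP (2.02 to 2.14) against 0.376%. In total RNA it held 0.0114% in the control, 0.147% in susi-2 and 0.0859% in susi-3. Its opposite-strand counts in total RNA were 24, 322 and 133, a ratio of 13.5 for susi-2 (8.89 to 21.3) and 5.92 for susi-3 (3.81 to 9.56), both above those of rrn-3.1 as a whole. F31C3.16, on the 26S pseudogene, held 50.2% in the susi-2 IP (49.9 to 50.5) and 2.94% in the susi-3 IP (2.80 to 3.07). How reads shared by a feature and its host were divided is not given, so these counts cannot be subtracted from each other.

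Across the 6 libraries, the opposite-strand level of rrn-3.1, as log2(CPM + 1), had a Pearson r of 0.980 with rrn-1.1, 0.979 with rrn-1.2, 0.982 with F31C3.13 and 0.824 with rrn-2.1, where the low control IP stands apart. Among 4132 genes outside the rRNA class, the highest values were found for kin-2, the regulatory subunit gene of protein kinase A (0.986), rps-9, a ribosomal protein gene (0.986), the transposon feature T19C9.7 (0.985), Y52B11A.19 (0.984) and unk-1 (0.982). These genes were far lower in level: kin-2 had 0.666, 1.34 and 1.22 CPM in total RNA and 2.98, 23.8 and 4.102 CPM in the IPs, from 7 to 217 counts. In all, 126 genes had an r of at least 0.9 and the median was −0.44. The values are a description over 6 libraries of 3 genotypes, in which the susi-2 IP weighs heavily.

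The lists of genes for rRNA synthesis and siRNA production held no gene at least 2-fold higher in total RNA of either mutant. Of the modification and processing genes, 25 of 30 listed symbols were found. None of the 24 with enough antisense counts was at least 2-fold higher in total RNA of susi-2 and 2 were lower (median −0.53), where 25.0% of all genes were lower. In susi-3 none was higher and 5 were lower (median −0.66), where 18.5% of all genes were lower. With 3.94% and 5.48% of all genes higher in these pairs, the absence of higher genes is not a result about the list. In the susi-2 IP, where 45.8% of all genes were higher, 15 of 19 were higher (median 1.83), among them ncl-1, a regulator of nucleolar size, with 805 antisense counts against 158, 6.01-fold (5.06 to 7.17). In the susi-3 IP, where 11.8% of all genes were higher, 2 of 8 were higher (median −0.02). Of the exosome and decay nuclease genes, none of 12 was higher in total RNA of susi-2 or susi-3, while 3 of 6 were higher in the susi-2 IP (median 0.88), a share near that of all genes. In that group disl-2, which encodes a relative of the exoribonuclease Dis3L2 and is itself known as a suppressor of ribosomal siRNAs, had 92 counts against 39 in the susi-2 IP, 2.78-fold (1.89 to 4.16). Of the siRNA synthesis and NRDE genes, 0 of 17 and 0 of 18 were higher in total RNA of susi-2 and susi-3, and 10 of 16 and 0 of 11 in their IPs (median 1.07 and −0.79). The nrde-3 gene itself, whose transgene is part of every strain, had 6920 antisense counts against 5508 in the susi-2 IP, a ratio of 1.48 (1.43 to 1.53), and 2539 in the susi-3 IP, a ratio of 0.521 (0.497 to 0.547). The 4 listed RNA polymerase I genes had none at least 2-fold higher in total RNA, and 1 of the 2 with enough counts was higher in the susi-2 IP (median 0.68). That was rpoa-2, which encodes the second largest subunit, with 87 counts against 39, 2.63-fold (1.78 to 3.94), while rpoa-1, the largest subunit gene, had 1345 counts against 1407, a ratio of 1.13 (1.05 to 1.22). Beside medians of 1.83, 0.88, 1.07 and 0.68 for these lists in the susi-2 IP, the median of all genes was 0.92 and that of the 5 members 6.22. The member median is the value of F31C3.13, and 18S enters it more than once.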

How the data were processed

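Small RNA of 17 to 30 nt was gel-purified after phosphatase treatment and rephosphorylation with 1 mM ATP, per the labels' protocols. The authors deposited raw counts per feature, a sense and an antisense count for each library. The submitters' processing notes name Bowtie2. The aligner version, genome build, annotation and handling of reads with several matches were not given in the sources used here.

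Counts of 56377 features were summed to 45510 genes, of which 43622 were in the gene-name table. Blank cells (5) were taken as 0. Features without a gene (3, with 122 counts or fewer in a library) were dropped. Members and lists were chosen with earlier results of these data known. Named besides the members were the 5 genes most like rrn-3.1, among genes with at least 200 antisense counts over all libraries and at least 10 in 3 or more, and up to 3 genes per pathway list, those with the most antisense counts.

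Values are shares of all counts on both strands. Intervals are 95%: Clopper-Pearson for shares, exact conditional for ratios, and a log approximation for odds ratios (in place of the exact one intended) and for ratios of ratios. No molecular identifiers are described, so reads are not independent molecules. Gene by gene, log2 ratios used a pseudocount of 1 CPM and at least 50 counts over both libraries. Being at least 2-fold higher is a description, not a test. Alternatives were TMM (edgeR 4.0.16) and DESeq2 1.42.0 size factors, other denominators, other minimums and a pseudocount of 0.1 CPM. Python 3.11.15, scipy 1.17.1 and R 4.3.3 were used, and the scripts were tested on simulated data. Gene overlaps come from RefSeq assembly WBcel235 and were used without coordinates.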

Additional observations from a re-analysis of the deposited data

Results flagged for a closer look

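Several ratios of the same gene pointed in opposite directions in different kinds of library or genotypes. With 1 library per group these differences were not tested, and on the rRNA strand they are small shares of an abundant RNA.

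On the rRNA strand, rrn-1.1 was 1.47-fold the control in total RNA of susi-2 but 0.805-fold in the IP, and rrn-1.2 was 1.36-fold and 0.806-fold. In susi-3 the ratios were 1.201 and 0.920 for rrn-1.1, and 1.08 and 0.919 for rrn-1.2. For rrn-2.1 they were 1.22 and 0.866 in susi-2, and 1.24 and 0.538 in susi-3. For rrn-3.1 they were 1.005 and 0.930 in susi-2, and 0.882 and 1.18 in susi-3, so as shares of all counts this gene turned the other way in susi-3. That turn depends on the scaling, as do the susi-2 turns of the other genes. Over microRNA counts the susi-2 ratios in total RNA and IP were 1.56 and 1.65 for rrn-1.1. They were 1.44 and 1.66 for rrn-1.2, and 1.30 and 1.78 for rrn-2.1. With TMM these genes kept opposite directions in susi-2, at 2.39 and 0.378 for rrn-1.1. With TMM the rrn-3.1 ratio in total RNA of susi-3 was 1.36. Over counts outside the rRNA class its susi-2 ratios were 1.07 in total RNA and 1.09 in the IP.

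Between IP and total RNA, the rRNA strand of rrn-1.1 was 1.29-fold in the control, 0.704-fold in susi-2 and 0.989-fold in susi-3. That of rrn-1.2 was 1.28-fold, 0.759-fold and 1.09-fold. The opposite strand of rrn-2.1 was lower in the IP in the control, at 0.227, and higher in susi-2, at 66.7, and in susi-3, at 1.503. The control value rests on 10 counts in the IP and 43 in total RNA.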

How the results depend on the processing

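No paired analysis was possible because each group has 1 library. Leaving out libraries in turn was not done for that reason. The summed precursor ratio on the opposite strand stayed above 1 in every comparison and under every alternative run, but its size moved.

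With TMM the mutant-to-control ratio was 7.39 (total susi-2), 4.34 (total susi-3), 104 (IP susi-2) and 8.80 (IP susi-3), and the IP-to-total ratio was 56.1 in the control, 618 in susi-2 and 114 in susi-3. With DESeq2 size factors these were 7.43, 4.38, 102, 8.87, 61.1, 626 and 127. Over counts outside the rRNA class, the IP ratios were 260.4 and 7.60 and the IP-to-total ratios 18.2, 969 and 50.2. With 1 copy of 18S they were 244 (IP susi-2) and 29.8 (susi-3 IP to total). The next alternatives were chosen after seeing the data. With the 4 features annotated against rRNA added and their columns exchanged, the ratios were 5.51 (total susi-2), 249 and 7.42 (IPs) and 513 (susi-2 IP to total). Over microRNA counts, they were 2.47 (total susi-3), 455 and 11.4 (IPs), and 38.3, 3602 and 177 (IP to total).

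Counts of genes at least 2-fold higher moved too. TMM and DESeq2 factors gave 490 and 494 in total susi-2 (main 211), 600 and 605 in total susi-3 (299), 719 and 697 in IP susi-2 (2031), 1438 and 1503 in control IP to total (627), and 1277 and 1348 in susi-3 IP to total (632). A minimum of 10 counts and one of 1 count gave the same numbers: 452 in total susi-3, 3859 in IP susi-2, 623 in IP susi-3, 1707 in control IP to total, 4889 in susi-2 IP to total (1752) and 1943 in susi-3 IP to total.

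Among differences of at least 2-fold, the 5.8S gene changed direction. Its opposite strand in the control IP against total RNA was 1.13 with TMM and 1.23 with DESeq2 factors. Its rRNA strand was 3.26 over microRNA counts in susi-2 IP to total, and 1.35 with TMM, 1.497 with DESeq2 factors and 2.09 over microRNA counts in susi-3 IP to total. Smaller rRNA-strand ratios also changed side of 1, 18S included. The cause was not tested.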
